A study of Mus musculus with 100 samples.

Results

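The insulin-like growth factor (IGF) genes measured here are the ligands Igf1 and Igf2, the type 1 receptor Igf1r and the binding proteins Igfbp2, Igfbp3, Igfbp4, Igfbp5, Igfbp6 and Igfbp7. These 9 genes were taken by symbol from a table of RNA-seq counts of 17310 genes in whole mouse knee joints, and all 9 had counts. The mice were MRL/MpJ, C57BL/6 (C57BL/6J in the study's methods) and STR/ort, inbred strains that the labels give as not, moderately and highly susceptible to post-traumatic osteoarthritis (PTOA). Right knees of 10-weeks old mice were injured by a single compression of the tibia at 10 to 12 N, and the injured and the uninjured contralateral joints were taken 1-day, 1-week and 2-weeks later, while the 0-day joints came from mice before any injury. The labels name no engineered allele or agent in any of the 3 strains. By the study's methods the injury was done under isoflurane and followed by buprenorphine, and it is not stated that 0-day mice received either, so contralateral joints can differ from 0-day joints by time, by the injury on the other side of the same body and by these drugs.

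IGF-I and IGF-II are growth factors that signal through the type 1 receptor, a tyrosine kinase, and in joints they are known for driving cartilage cells to make matrix. The IGF-binding proteins are secreted and hold the ligands in the extracellular fluid and matrix, where they prolong their life, keep them from the receptor or, after cleavage by proteases, release them. Igfbp7 encodes a related secreted protein of low affinity for IGFs that is also known from the basement membrane of vessels.

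The 100 libraries fall into 21 groups of 4 or 5 joints, with total counts of 6182016 to 20986027 per library. The 70 libraries of 0-day, 1-day and 1-week belong to experimental batch 1 in the labels and the 30 of 2-weeks to batch 2, so for 2-weeks the effects of time and batch cannot be told apart and every test was made within a time point or within batch 1. The 15 injured joints of 2-weeks each share an animal with a contralateral joint according to the labels. Cartilage markers (Acan, Col2a1, Comp and Matn3) and bone markers (Bglap, Sp7, Ibsp and Phex) were detected in every group, as the label knee joint requires, and muscle was also present: the summed level of 8 fast muscle markers was 14690 to 32120 CPM (counts scaled to a common library size) in injured STR/ort joints at 1-week and 79770 to 93280 CPM in STR/ort at 0-day. In such bulk samples fewer cells of a type and less RNA per cell cannot be told apart. Where no separate animals are named for replicates, p-values measure only the spread between libraries.

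Per length of exon, 4 of the 6 binding proteins stood well above the ligands at 0-day. In C57BL/6 joints at 0-day the group mean was 206.8 CPM per kilobase (kb) for Igfbp7, 155.9 for Igfbp5, 87.3 for Igfbp4 and 58.0 for Igfbp6, against 12.4 for Igf1, 11.6 for Igfbp3, 5.10 for Igf1r and 3.59 for Igf2. Igfbp2 was the lowest at 0.857 CPM per kb. In injured STR/ort joints at 1-week Igfbp6 and Igf1 were close, at 54.9 and 51.3 CPM per kb. The 9 genes lie on 6 chromosomes in the mouse genome (GRCm38, the build of the counts): Igf1 on chromosome 10 (87858265 to 87937042), Igf2 and Igf1r on chromosome 7 (142650766 to 142666816 and 67952827 to 68233668), Igfbp3 and Igfbp4 on chromosome 11 (7206086 to 7213923 and 99041244 to 99054392), Igfbp6 on chromosome 15 (102144362 to 102149511) and Igfbp7 on chromosome 5 (77349240 to 77408041). Igfbp2 (72824503 to 72852474) and Igfbp5 (72857932 to 72874884) are neighbours on chromosome 1, with 5457 bases between them. In GENCODE M21 exons of Igf2 share 3694 bases with other genes, most of them with the gene model Gm49394 on the same strand. The rest are shared with the antisense Igf2os, and exons of Igfbp7 share 85 bases with Polr2b on the other strand. The counts were made per RefSeq gene, and whether these overlaps applied there was not checked. It is not stated that the counting used strand, which would not separate Igf2 from Gm49394. Reads in these stretches therefore cannot be assigned.

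**Figure D1:**
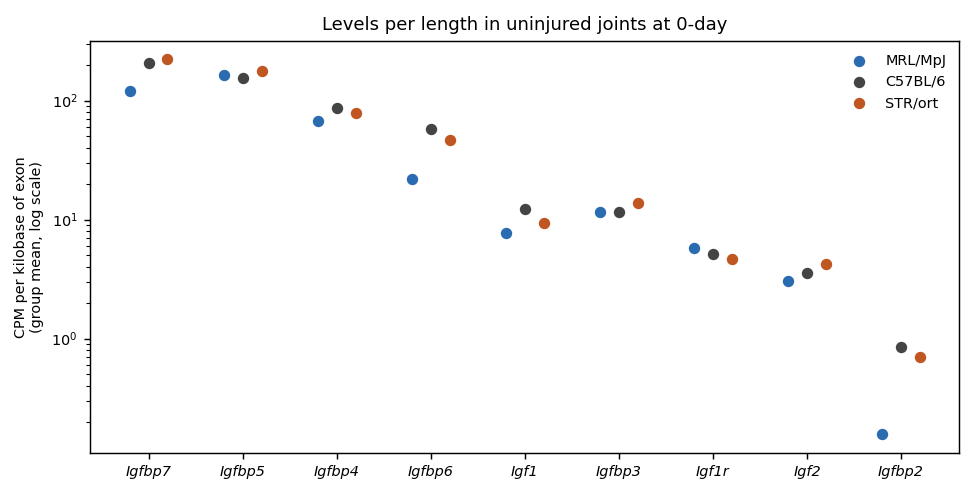
Group mean levels of the 9 genes in uninjured joints at 0-day, as CPM per kilobase of exon on a log axis, 1 point for each strain. Igfbp7, Igfbp5 and Igfbp4 are the highest in all 3 strains, and Igfbp2 is the lowest, at 0.158 in MRL/MpJ, 0.857 in C57BL/6 and 0.706 CPM per kb in STR/ort.

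Most called injury changes of these genes were upward. Igf1 and Igfbp7 rose in all strains at 1-week, together with Igf2, while Igfbp3 and Igfbp4 were called in C57BL/6 and STR/ort; the Igfbp3 change of MRL/MpJ, just under the fold threshold, passed it in 3 alternative fits given with that gene. Calls required more than a 1.5-fold change and an adjusted p under 0.05 in edgeR's quasi-likelihood test, and folds are given as log2 values ± standard error (SE). Over the 9 injury comparisons, 26 of 81 values were called, 25 higher and 1 lower in the injured joint. That is 32.1% of the values of the 9 genes, against 4.32% of the values of all genes. At 1-day 0 of the 9 genes were called in MRL/MpJ, 2 in C57BL/6 and 1 in STR/ort, where 2.02%, 5.6% and 4.31% of all genes were. The counts at 1-week were 3 in MRL/MpJ, 5 in C57BL/6 and 5 in STR/ort, against 3.13%, 5.82% and 9.21% of all genes. At 2-weeks 2 genes were called in MRL/MpJ, 4 in C57BL/6 and 4 in STR/ort, against 1.16%, 2.95% and 4.66%.

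Igf1, the main ligand of the postnatal skeleton, had the largest injury changes of the 9 genes at 1-week in every strain. The promoter listed for Igf1 is shown because the gene was called higher in all strains at 1-week and 2-weeks. Its window lies inside the annotated gene, which begins at 87858265, so a promoter at that end is not shown. In the 300 bases around the start site (RefSeq, GRCm38.p6, chr10:87860861-87861160, plus strand, 250 before to 50 after the start) the capitals mark matches to 7 motifs searched on both strands (the TATA box TATAAA, the CCAAT box, the GC box GGGCGG, the E-box CACGTG, the AP-1 letters TGANTCA, the STAT letters TTCNNNGAA and the TEAD letters GGAATG), here an inverted CCAAT at -142 and the AP-1 letters TGANTCA at -37.
Igf1: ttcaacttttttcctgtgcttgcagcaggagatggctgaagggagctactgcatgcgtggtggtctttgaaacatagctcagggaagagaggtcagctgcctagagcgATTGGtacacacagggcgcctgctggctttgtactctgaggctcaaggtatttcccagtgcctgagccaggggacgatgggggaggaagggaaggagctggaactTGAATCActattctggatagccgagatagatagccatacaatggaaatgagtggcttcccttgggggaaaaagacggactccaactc
TGANTCA is found in 7.81% and CCAAT in 37.4% of 32851 promoters of that length, and a match is a description of the letters only.

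At 1-week the 4 contralateral MRL/MpJ joints had 80.1, 72.7, 80.2 and 83.9 CPM of Igf1 and the 5 injured joints 207, 214, 262, 218 and 188 CPM. In C57BL/6 the contralateral values were 63.2, 84.7, 100.2, 77.8 and 73.9 CPM and the injured 234, 237, 214, 266 and 309 CPM. STR/ort contralateral joints had 183, 169.6, 96.8 and 209.6 CPM and injured joints 531, 414, 556, 489 and 552 CPM. Injured and contralateral values did not overlap in any strain, and the injured STR/ort joints were above all other joints of the 1-week time point. The log2 change was 1.49 ± 0.16, adjusted p = 1.09e-07 in MRL/MpJ, 1.68 ± 0.15, adjusted p = 1.55e-09 in C57BL/6 and 1.62 ± 0.16, adjusted p = 8.15e-09 in STR/ort. By level STR/ort stood apart, with the largest group mean among contralateral and among injured joints. The levels of C57BL/6 and MRL/MpJ were not called different from each other. A difference in the change was not detected. The changes of STR/ort and MRL/MpJ differed by log2 0.13 ± 0.21, adjusted p = 0.865. Those of STR/ort and C57BL/6 differed by log2 -0.057 ± 0.21, adjusted p = 0.953.

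At 1-day the Igf1 change was called in C57BL/6 only. Contralateral C57BL/6 joints had 97.7, 91.2, 83.999, 89.6 and 96.97 CPM and injured joints 176, 138, 172, 199.7 and 157 CPM, which do not overlap (log2 0.87 ± 0.11, adjusted p = 3.21e-07). MRL/MpJ had 84.7, 79.4, 76.3, 73.8 and 68.4 CPM in contralateral and 98.04, 104, 93.2, 91.7 and 101 CPM in injured joints, again without overlap, and a log2 change of 0.37 ± 0.11 (adjusted p = 0.0411), which is below the 1.5-fold threshold. In STR/ort the contralateral joints had 108, 162, 103, 122 and 95.5 CPM and the injured 119, 115, 98.5, 105 and 131 CPM, which overlap (log2 -0.073 ± 0.10, adjusted p = 0.755). The injury change of STR/ort was lower than that of C57BL/6 by a log2 difference of -0.95 ± 0.15, adjusted p = 0.00014. At 1-day the sum of 5 macrophage markers separated the joints of C57BL/6 only, while Igf1 separated those of C57BL/6 and MRL/MpJ. They summed to 702 to 843 CPM in injured and 523 to 596 CPM in contralateral C57BL/6 joints, without overlap, but to 369 to 453 and 322 to 398 CPM in MRL/MpJ and 496 to 538 and 471 to 554 CPM in STR/ort, where they overlap. After injury 1 of 5 of these markers was called higher in C57BL/6 (5.6% of all genes called). In MRL/MpJ (2.02%) and STR/ort (4.31%) 0 of 5 were. Over the 9 injury comparisons 4.44% of the macrophage values were called, near the 4.32% of all genes. The change of 2 of 5 macrophage and 2 of 5 fibroblast markers was called lower in STR/ort than in C57BL/6, where 2.66% of all genes were called. The 5 marrow neutrophil markers were lower in injured C57BL/6 joints, again without overlap (5574 to 7154 and 7966 to 10330 CPM). None of the 5 macrophage markers was at 0 in any group, and the part of either list in the Igf1 change was not tested.

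At 2-weeks Igf1 was still called in each strain. MRL/MpJ contralateral joints had 60.6, 66.99, 69.7, 65.2 and 67.7 CPM and injured joints 107, 138, 77.6, 140.3 and 129.6 CPM. In C57BL/6 the values were 66.4, 74.99, 70.003, 69.03 and 81.7 CPM and 226, 148, 144, 189.9 and 178 CPM. In STR/ort they were 85.4, 93.4, 73.9, 76.7 and 70.9 CPM and 268, 264, 175, 212 and 320.1 CPM. The contralateral joints of the strains lay close together and the injured joints spread out, lowest in MRL/MpJ and highest in STR/ort. The log2 change was 0.84 ± 0.14, adjusted p = 0.000558 in MRL/MpJ, 1.29 ± 0.14, adjusted p = 5.38e-07 in C57BL/6 and 1.64 ± 0.14, adjusted p = 1.07e-09 in STR/ort. The change of STR/ort exceeded that of MRL/MpJ by log2 0.80 ± 0.20, which was not called (adjusted p = 0.0504), although it was in DESeq2 (0.77, adjusted p = 0.0326) and with a factor of unwanted variation from 25 housekeeping genes (RUVg, 0.81, adjusted p = 0.0306).

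Igf2, the ligand best known from fetal growth and imprinted so that the paternal copy is used, was not called at 1-day and rose in all strains at 1-week. At 1-day injured joints had 16.5, 16.4, 14.99, 16.6 and 22.5 CPM in MRL/MpJ, 17.7, 17.6, 19.8, 15.3 and 15.7 CPM in C57BL/6 and 9.31, 13.001, 13.2, 12.6 and 15.4 CPM in STR/ort, and 0 of 3 changes were called, with log2 values of -0.13 ± 0.13, -0.12 ± 0.13 and -0.40 ± 0.14. At 1-week the contralateral and injured values were 17.9, 16.9, 17.8 and 19.6 CPM and 28.4, 32.7, 44.6, 32.7 and 28.1 CPM in MRL/MpJ. In C57BL/6 they were 17.7, 19.6, 23.2, 20.5 and 16.6 CPM and 44.2, 43.98, 35.3, 39.6 and 54.4 CPM. STR/ort had 17.96, 19.2, 18.2 and 15.4 CPM and 43.4, 36.3, 35.6, 48.6 and 39.1 CPM, so injured joints were above contralateral joints without overlap in all 3 strains. The log2 change was 0.92 ± 0.13, adjusted p = 1.96e-05 in MRL/MpJ, 1.18 ± 0.12, adjusted p = 3.41e-08 in C57BL/6 and 1.19 ± 0.13, adjusted p = 1.34e-07 in STR/ort.

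By 2-weeks only the Igf2 change of C57BL/6 was called. Its contralateral joints had 22.3, 22.2, 22.8, 32.7 and 25.6 CPM and its injured joints 37.6, 38.5, 35.5, 47.9 and 38.3 CPM (log2 0.65 ± 0.14, adjusted p = 0.00164); without injured replicate 4, the highest library, the log2 value was 0.58 and the call was lost. In MRL/MpJ the change was 0.36 ± 0.14, adjusted p = 0.349 and in STR/ort 0.22 ± 0.14, adjusted p = 0.335, where injured joints had 46.4, 32.8, 29.2, 25.4 and 28.4 CPM and contralateral joints 30.5, 29.4, 29.5, 25.2 and 25.7 CPM. No strain difference in Igf2 injury change was called at any time.

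Igf1r, the receptor that both ligands activate, was called in 0 of the 48 comparisons made here. Injury changes ranged from log2 -0.24 in STR/ort at 1-week, where contralateral joints had 88.4, 82.7, 100.2 and 87.03 CPM and injured joints 75.9, 73.6, 77.5, 75.6 and 79.2 CPM without overlap (adjusted p = 0.0153), to 0.032 in MRL/MpJ at 1-day. The strains differed by less than 1.5-fold, but MRL/MpJ had the highest and STR/ort the lowest mean in every time and kind of joint. At 0-day MRL/MpJ had 89.8, 99.8, 97.997 and 97.4 CPM, C57BL/6 85.4, 86.4, 84.2 and 86.3 CPM and STR/ort 77.1, 75.6, 81.5 and 81.6 CPM, so that MRL/MpJ and STR/ort did not overlap (log2 of STR/ort minus MRL/MpJ -0.28 ± 0.061, adjusted p = 0.00153). The same difference was -0.48 ± 0.061, adjusted p = 2.15e-07 in injured joints at 1-day, which was called only with scaling by the housekeeping genes (-0.66), and -0.44 ± 0.067, adjusted p = 2.45e-06 at 1-week.

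**Figure D2:**
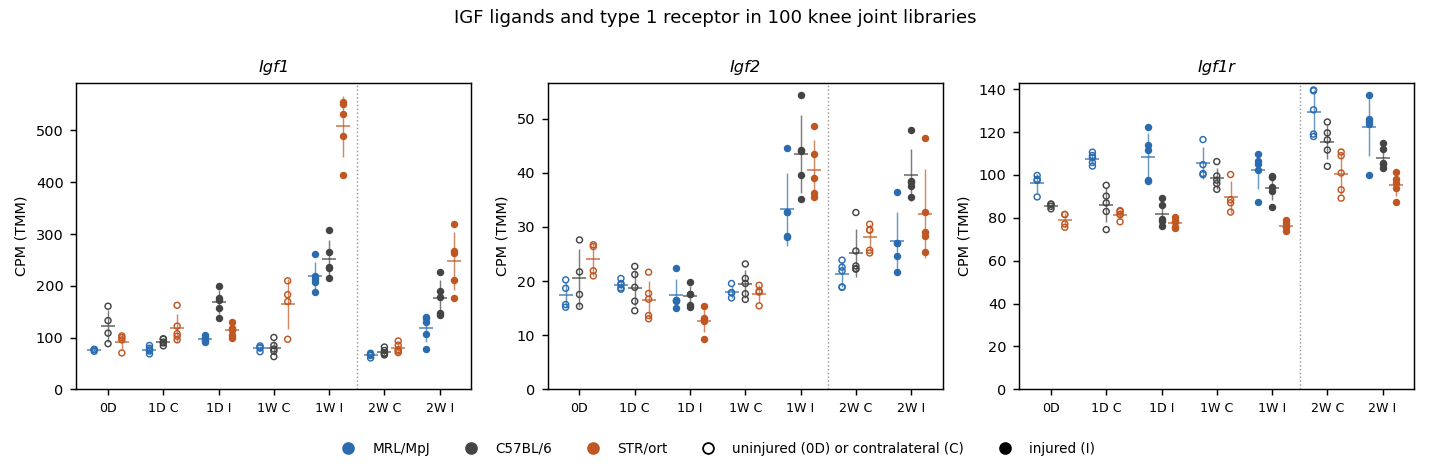
Levels of Igf1, Igf2 and Igf1r in each library, in CPM with TMM library sizes, by time point and joint (0D, 0-day; C, contralateral; I, injured), strain by colour. Open points are uninjured or contralateral joints and filled points injured joints, bars are the mean ± SD of 4 or 5 libraries, and the dotted line separates batch 1 from batch 2. The injured STR/ort joints at 1-week reach 414 to 556 CPM of Igf1, above all other libraries, while Igf1r stays between 73.6 and 139.7 CPM throughout.

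Igfbp7 rose with Igf1 at 1-week, and within batch 1 its group means ran from 144.8 CPM in MRL/MpJ joints at 0-day to 788.6 CPM in injured STR/ort joints at 1-week. Igfbp4, an inhibitory binding protein that the protease Pappa cleaves, followed a like course over the groups. The promoters of both are shown because their group means went together (Pearson r = 0.918 over the 21 groups, a description, since the groups share strain and batch). In capitals are 4 GC boxes (GGGCGG or its inverse) for Igfbp7 (chr5:77407996-77408295, minus strand) and a TATAAA at -28 for Igfbp4 (chr11:99040994-99041293, plus strand), and none of the 7 motifs searched is in both windows.
Igfbp7: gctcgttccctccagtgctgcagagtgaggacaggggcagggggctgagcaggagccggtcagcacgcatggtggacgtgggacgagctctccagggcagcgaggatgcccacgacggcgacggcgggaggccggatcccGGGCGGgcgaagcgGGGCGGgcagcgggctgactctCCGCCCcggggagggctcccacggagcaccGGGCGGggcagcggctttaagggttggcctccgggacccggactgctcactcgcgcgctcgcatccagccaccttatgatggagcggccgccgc
Igfbp4: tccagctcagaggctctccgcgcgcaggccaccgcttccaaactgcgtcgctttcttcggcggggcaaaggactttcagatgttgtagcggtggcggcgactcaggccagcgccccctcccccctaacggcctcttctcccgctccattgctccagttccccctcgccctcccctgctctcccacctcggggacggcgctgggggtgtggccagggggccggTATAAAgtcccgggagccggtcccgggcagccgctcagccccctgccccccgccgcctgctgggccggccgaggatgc
GGGCGG is found in 35.7% and TATAAA in 13.6% of the 32851 promoters.

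Igfbp7 was called higher in injured joints in 6 of 9 comparisons. At 1-week contralateral and injured values were 148, 162, 135 and 158 CPM and 247, 245, 303, 245 and 249 CPM in MRL/MpJ. C57BL/6 had 157, 171, 165, 154 and 184 CPM and 286, 292, 289.7, 286 and 355 CPM. STR/ort had 508, 569, 313 and 475 CPM and 862, 787, 792, 684 and 817 CPM, with every STR/ort joint of either side above every C57BL/6 and MRL/MpJ contralateral joint. The log2 change was 0.81 ± 0.11, 0.89 ± 0.11 and 0.75 ± 0.11 in MRL/MpJ, C57BL/6 and STR/ort, with adjusted p of 1.46e-05, 4.84e-07 and 1.24e-05. At 1-day C57BL/6 injured joints had 353, 262, 306, 376 and 329 CPM against 225, 212, 194, 203 and 226 CPM (log2 0.62 ± 0.099, adjusted p = 3.28e-05), a call lost without injured replicate 4 (0.56) or contralateral replicate 3 (0.58) and with scaling by 25 housekeeping genes (0.56). At 1-day STR/ort had 399.6, 349, 357, 367 and 425 CPM in injured and 286, 449.6, 309.5, 359 and 362 CPM in contralateral joints, which overlap. MRL/MpJ had 202.5, 236, 174, 197 and 217 CPM in injured and 163, 147, 139, 146 and 159 CPM in contralateral joints at 1-day. These did not overlap but the change was below 1.5-fold (log2 0.46, adjusted p = 0.00405). At 2-weeks the log2 change was 0.82 ± 0.11, adjusted p = 8.32e-06 in C57BL/6 and 1.06 ± 0.11, adjusted p = 3.44e-08 in STR/ort, and in MRL/MpJ 0.57 ± 0.11, adjusted p = 0.00325, just under the fold threshold, which it passed with RLE size factors (0.59), in DESeq2 (0.59) and with a stricter filter on low counts (0.60). The 2-weeks injured joints had 99.99, 112, 75.8, 128 and 101 CPM in MRL/MpJ and 221, 215, 183, 221 and 243 CPM in STR/ort, which do not overlap.

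Igfbp4 was called in 3 injury comparisons, none of them in MRL/MpJ. At 1-week MRL/MpJ had 305, 321, 280.3 and 330.01 CPM in contralateral and 421, 423, 390.1, 452 and 406 CPM in injured joints, without overlap but below 1.5-fold (log2 0.47 ± 0.10, adjusted p = 0.00368). C57BL/6 had 268, 241, 289, 348 and 306 CPM and 496, 378, 453, 458 and 542 CPM (log2 0.71 ± 0.096, adjusted p = 3.34e-06). STR/ort had 504, 428, 381 and 489 CPM and 895, 868, 712, 769 and 879.5 CPM (log2 0.87 ± 0.10, adjusted p = 3.56e-07). The injured STR/ort joints were thus above all other 1-week joints. At 2-weeks the injured STR/ort joints had 468, 475, 371, 479.8 and 599.7 CPM against 223, 249, 236, 286 and 272 CPM (log2 0.92 ± 0.097, adjusted p = 2.61e-08). The corresponding MRL/MpJ values were 331, 312, 235, 251 and 319.5 CPM and 239.6, 235, 243, 256 and 239.9 CPM, which overlap (log2 0.25 ± 0.097, adjusted p = 0.369). The difference between these 2 changes was log2 0.68 ± 0.14, adjusted p = 0.0177, and it was lost without injured MRL/MpJ replicate 4 (0.58) or contralateral MRL/MpJ replicate 1 (0.63, adjusted p = 0.0615).

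Igfbp3, the main carrier of IGF in serum, had the called strain differences in injury change at both 1-week and 2-weeks. At 1-week MRL/MpJ had 28.6, 30.2, 36.3 and 31.6 CPM in contralateral and 41.1, 44.9, 63.9, 43.3 and 36.9 CPM in injured joints (log2 0.57 ± 0.14, adjusted p = 0.0138), without overlap and below 1.5-fold, but called with housekeeping scaling (0.60, adjusted p = 0.0122), the RUVg factor from the same genes (0.63, adjusted p = 0.00543) and the replicate block (0.63, adjusted p = 0.00638). C57BL/6 had 24.8, 26.8, 33.7, 30.04 and 30.4 CPM and 51.4, 47.6, 47.7, 50.6 and 50.6 CPM (log2 0.79 ± 0.14, adjusted p = 9.6e-05). STR/ort had 53.9, 49.6, 40.7 and 73.2 CPM and 181, 142, 165, 124 and 142 CPM (log2 1.47 ± 0.14, adjusted p = 7.95e-09). The lowest injured STR/ort joint, at 124 CPM, was above the highest injured joint of the other strains, at 63.9 CPM. The STR/ort change exceeded that of MRL/MpJ by log2 0.90 ± 0.20, adjusted p = 0.0193, a call lost without contralateral MRL/MpJ replicate 3 (0.83, adjusted p = 0.0557). It exceeded that of C57BL/6 by 0.68 ± 0.19, not called (adjusted p = 0.103), but called at 0.71 (adjusted p = 0.0341) with the replicate block, that is with the joints of 1 replicate number paired, and at 0.70 (adjusted p = 0.0443) in DESeq2.

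At 2-weeks Igfbp3 had 18.1, 24.3, 22.5, 28.7 and 21.6 CPM in contralateral and 48.4, 49.7, 44.5, 46.8 and 50.9 CPM in injured STR/ort joints (log2 1.06 ± 0.12, adjusted p = 9.2e-08). MRL/MpJ had 21.1, 20.3, 18.6, 19.7 and 20.9 CPM and 25.8, 30.8, 19.8, 24.7 and 25.1 CPM (log2 0.32 ± 0.12, adjusted p = 0.348). C57BL/6 had 23.6, 18.02, 24.03, 25.7 and 25.02 CPM and 41.3, 23.9, 32.5, 40.5 and 30.5 CPM, which overlap (log2 0.54 ± 0.12, adjusted p = 0.0038). Contralateral joints of the 3 strains thus overlapped at 2-weeks and the injured STR/ort joints were above all others. The difference between the changes of STR/ort and MRL/MpJ was log2 0.74 ± 0.17, adjusted p = 0.0369, but 13 of the 20 fits without 1 library no longer passed (log2 0.67 to 0.75, adjusted p 0.0573 to 0.134), and neither did the fits with RLE size factors (adjusted p = 0.0564) or a stricter filter on low counts (adjusted p = 0.076).

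Igfbp5, the binding protein that is abundant in bone and muscle, was the highest in CPM of the 9 genes and 0 of its 9 injury changes were called. The changes were log2 0.58 ± 0.12, adjusted p = 0.000584 in C57BL/6 at 1-week, at the 1.5-fold threshold (0.64 with housekeeping scaling and 0.65 with RUVg, both called), and 0.50 ± 0.095, adjusted p = 0.000555 at 2-weeks. At 1-day STR/ort was lower in injured joints, 725, 638, 731, 666 and 879 CPM against 962, 998, 951, 918 and 892 CPM without overlap (log2 -0.39 ± 0.096, adjusted p = 0.00601, below 1.5-fold). C57BL/6 had 1105, 986, 1059.8, 958 and 996 CPM in injured and 1059.8, 894, 843, 779.9 and 881 CPM in contralateral joints. The change of STR/ort was lower than that of C57BL/6 by a log2 difference of -0.59 ± 0.14, adjusted p = 0.00864, which sits at the fold threshold: 11 of 20 fits without 1 library fell under it (log2 -0.58 to -0.53), as did the fit with RUVg (-0.56).

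Igfbp6, a binding protein that prefers IGF-II, was the only one of the 9 genes called lower after injury. In STR/ort at 1-day injured joints had 11.9, 22.6, 18.003, 18.7 and 32.99 CPM and contralateral joints 52.4, 36.8, 63.4, 54.98 and 39.8 CPM, without overlap (log2 -1.28 ± 0.22, adjusted p = 0.000188). MRL/MpJ had 17.7, 12.4, 9.77, 19.3 and 24.6 CPM against 25.8, 25.4, 16.5, 27.6 and 27.2 CPM (log2 -0.53 ± 0.23, adjusted p = 0.246). C57BL/6 had 45.5, 42.8, 26.8, 46.7 and 46.6 CPM against 72.7, 65.1, 56.8, 61.4 and 37.96 CPM (log2 -0.49 ± 0.21, adjusted p = 0.111), and no difference between strains in the change was called at 1-day. At 2-weeks Igfbp6 was called higher in MRL/MpJ and C57BL/6. MRL/MpJ had 43.3, 50.8, 31.7, 64.3 and 48.6 CPM in injured and 33.5, 30.5, 28.95, 29.8 and 30.4 CPM in contralateral joints (log2 0.63 ± 0.14, adjusted p = 0.00748), with the lowest injured joint among the contralateral values, a call lost without injured replicate 4 (0.53). C57BL/6 had 69.6, 53.5, 60.4, 78.8 and 45.8 CPM and 31.1, 33.4, 35.6, 46.1 and 36.5 CPM (log2 0.75 ± 0.14, adjusted p = 0.000311), again with a slight overlap. STR/ort had 77.9, 66.6, 61.5, 58.8 and 57.1 CPM and 51.4, 47.1, 45.7, 51.8 and 44.6 CPM, without overlap but below 1.5-fold (log2 0.43 ± 0.13, adjusted p = 0.0324).

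At 1-week the Igfbp6 values of STR/ort were spread widely. Contralateral joints had 67.96, 141, 77.02 and 68.8 CPM and injured joints 67.2, 82.1, 29.8, 57.2 and 69.1 CPM, so that replicate 2 was high on both sides and injured replicate 3 was low. The change was log2 -0.55 ± 0.23, adjusted p = 0.0937, and it was called with the replicate block (-0.61, adjusted p = 0.00913) and with RUVg (-0.75, adjusted p = 0.00825). Without contralateral replicate 2 it was -0.245 (adjusted p = 0.506), and without injured replicate 3 it was -0.37 (adjusted p = 0.239), both with no block. In MRL/MpJ and C57BL/6 the change was 0.71 ± 0.25, adjusted p = 0.122 and 0.69 ± 0.23, adjusted p = 0.0525. Both were called with the replicate block (0.64, adjusted p = 0.0335, and 0.72, adjusted p = 0.00327). Whether joints of 1 number share an animal at 1-week is not known in any strain. The C57BL/6 change was also called in DESeq2 (0.70, adjusted p = 0.0274) and with housekeeping scaling (0.76, adjusted p = 0.0258). STR/ort differed from MRL/MpJ by -1.26 ± 0.34, adjusted p = 0.0677 and from C57BL/6 by -1.24 ± 0.33, adjusted p = 0.0754, neither called, while both were with the replicate block (log2 -1.25, adjusted p = 0.00804, and -1.34, adjusted p = 0.00388), with RUVg (adjusted p = 0.0201 and 0.0191) and in DESeq2 (adjusted p = 0.0271 and 0.0289).

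Igfbp2 was low in MRL/MpJ in all 7 kinds of joint and was not called for injury in any comparison. Over all time points the 33 MRL/MpJ libraries had 0 to 10 counts, with a median of 0.397 CPM, the 34 C57BL/6 libraries 6 to 30 counts and a median of 1.49 CPM, and the 33 STR/ort libraries 7 to 38 counts and a median of 1.83 CPM. Only 7 of the 33 MRL/MpJ libraries reached the lowest library of the other strains, at 0.632 CPM. At 0-day the MRL/MpJ values were 0.699, 0.465, 0 and 0 CPM, and the counts of 0 in replicates 3 and 4 allow up to 0.517 CPM each by counting error alone (3 counts of the TMM library size). C57BL/6 had 0.996, 1.53, 1.64 and 2.16 CPM and STR/ort 1.07, 1.42, 1.25 and 1.47 CPM at 0-day. The log2 difference from MRL/MpJ was 2.14 ± 0.50, adjusted p = 0.00241 in C57BL/6 and 1.82 ± 0.53, adjusted p = 0.0119 in STR/ort, fitted values that rest on few counts. Both differences were called in every time and kind of joint, but at 1-week that of STR/ort was not with the RUVg factor (1.88, adjusted p = 0.0546, in contralateral and 1.16, adjusted p = 0.153, in injured joints). With that factor the C57BL/6 difference in injured joints at 1-week was not called either (0.97, adjusted p = 0.0545), and it was lost in 4 of 10 fits without 1 library. The first of its 2 promoters listed (RefSeq, GRCm38.p6, chr1:72824230-72824529, plus strand), which is that of the reference strain and not of MRL/MpJ, is shown for the gene with the largest strain difference. It holds CACGTG at -142, found in 7.15% of promoters, and 3 GC boxes, while the second (chr1:72825137-72825436, plus strand, not printed) holds neither and has the AP-1 letters at -39.
Igfbp2: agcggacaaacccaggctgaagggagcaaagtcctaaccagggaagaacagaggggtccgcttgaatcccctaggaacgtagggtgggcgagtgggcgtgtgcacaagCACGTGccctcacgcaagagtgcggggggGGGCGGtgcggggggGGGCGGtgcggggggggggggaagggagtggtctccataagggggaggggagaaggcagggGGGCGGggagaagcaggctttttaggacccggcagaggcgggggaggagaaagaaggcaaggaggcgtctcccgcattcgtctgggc

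**Figure D3:**
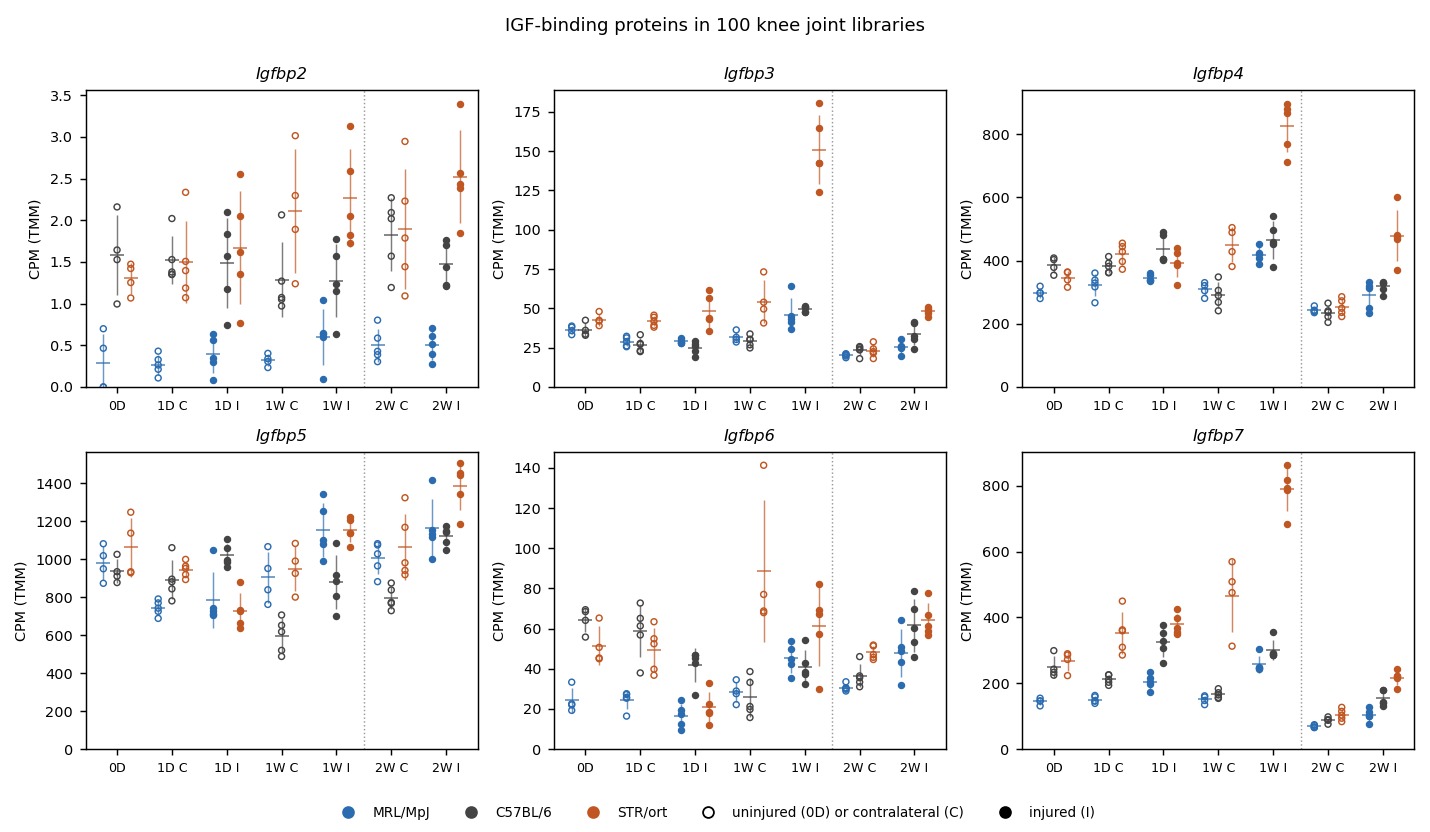
Levels of the 6 binding proteins in each library, in CPM with TMM library sizes, with axes and symbols as for the ligands: open points are 0-day or contralateral joints, filled points injured joints, bars the mean ± SD of 4 or 5 libraries, and the dotted line separates the batches. Igfbp3, Igfbp4 and Igfbp7 peak in injured STR/ort joints at 1-week, with means of 150.9, 824.6 and 788.6 CPM, and Igfbp2 is low in MRL/MpJ in every kind of joint.

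**Figure D4:**
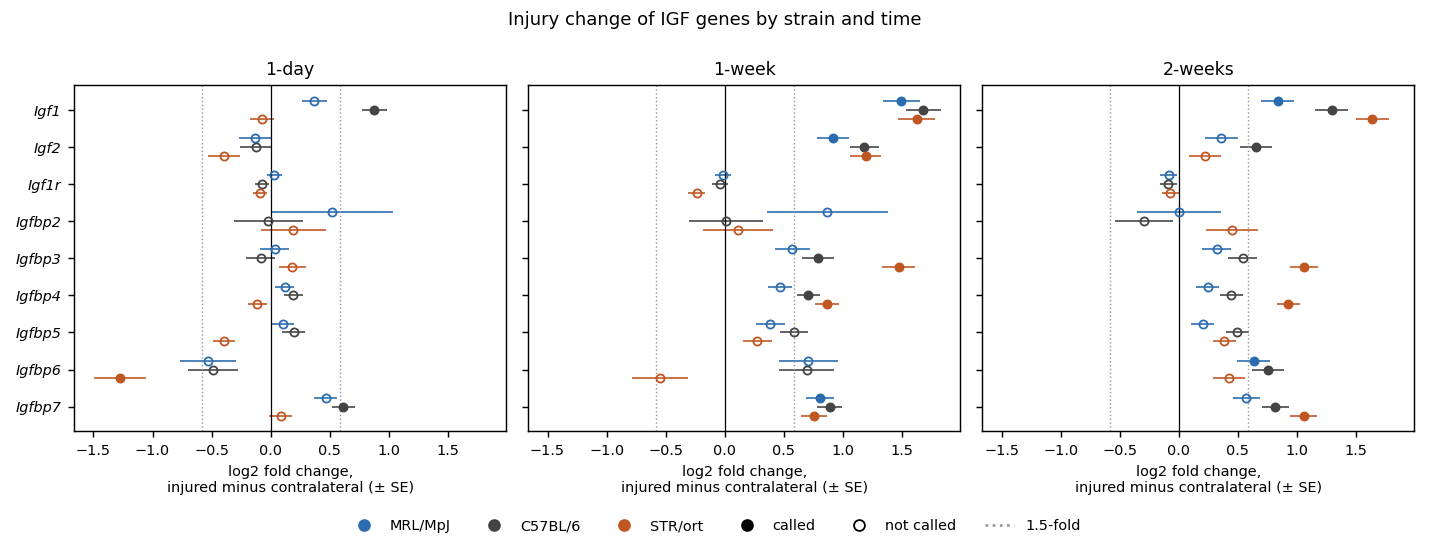
Log2 fold change of each of the 9 genes between injured and contralateral joints, in a panel for each time point, with bars of ± SE and a colour for each strain. Filled points are called (26 of 81), open points are not, and dotted lines mark 1.5-fold. Most called points lie at 1-week and 2-weeks on the right of 0, and Igfbp6 in STR/ort at 1-day is the single called point on the left.

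Before injury MRL/MpJ stood apart from both other strains. In this comparison, which asks what differs between strains of unlike susceptibility to PTOA before injury, 3 of the 9 genes were called between STR/ort and MRL/MpJ (14.8% of all genes), 4 between C57BL/6 and MRL/MpJ (15.9%) and 0 between STR/ort and C57BL/6 (13.8%), and all 7 were lower in MRL/MpJ. Beside Igfbp2 these were Igfbp6, Igfbp7 and Igf1. Igfbp6 had 33.3, 22.6, 22.05 and 19.3 CPM in MRL/MpJ, 69.4, 55.8, 68.5 and 64.1 CPM in C57BL/6 and 45.4, 45.02, 65.3 and 50.7 CPM in STR/ort, with log2 differences from MRL/MpJ of 1.42 ± 0.14 (adjusted p = 4.89e-07) and 1.06 ± 0.15 (adjusted p = 1.68e-05). Igfbp7 had 146, 155, 147 and 131 CPM in MRL/MpJ, 243, 233, 225 and 299 CPM in C57BL/6 and 286, 223, 272 and 289.7 CPM in STR/ort, with differences of 0.83 ± 0.098 (adjusted p = 2.89e-06) and 0.89 ± 0.098 (adjusted p = 1.19e-06). In both genes all MRL/MpJ libraries were below all others. Igf1 had 73.4, 76.8, 76.5 and 77.2 CPM in MRL/MpJ, 133, 109, 88.2 and 161 CPM in C57BL/6 and 95.5, 70.3, 103 and 99.9 CPM in STR/ort, and C57BL/6 exceeded MRL/MpJ by log2 0.73 ± 0.14, adjusted p = 0.000492, a call lost without C57BL/6 replicate 4 (0.57). The fibroblast markers (Pdgfra, Col1a1, Dcn, Thy1 and Prg4) summed to 7469 to 8847 CPM in MRL/MpJ, 13210 to 18160 CPM in C57BL/6 and 11740 to 13960 CPM in STR/ort. The 5 macrophage markers summed to 359.5 to 408, 502 to 539.8 and 302 to 369 CPM and the 8 fast muscle markers to 74280 to 90340, 34390 to 55610 and 79770 to 93280 CPM in the same order, so that C57BL/6 was highest in the former and lowest in the latter, without overlap with the other strains. Of 11 marker lists 6 did not overlap between STR/ort and MRL/MpJ, 6 between C57BL/6 and MRL/MpJ and 5 between STR/ort and C57BL/6, the erythroid and slow muscle lists in all 3 pairs. The part of these differences in the calls at 0-day was not tested.

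In contralateral joints 25 of 81 strain differences were called, or 30.9% against 15.2% of the values of all genes. The counts for STR/ort against MRL/MpJ were 4 at 1-day (22.6% of all genes), 5 at 1-week (24.4%) and 3 at 2-weeks (13.8%). For STR/ort against C57BL/6 they were 2 (10.5%), 6 (22.2%) and 0 (9.78%), and for C57BL/6 against MRL/MpJ 2 (14.8%), 2 (8.53%) and 1 (9.83%). So STR/ort stood apart most at 1-week. There Igfbp7 exceeded C57BL/6 by log2 1.504 ± 0.11, adjusted p = 1.03e-11 and MRL/MpJ by 1.65 ± 0.12, adjusted p = 8.37e-12. Igf1 exceeded C57BL/6 by 1.06 ± 0.15, adjusted p = 1.73e-06, although STR/ort replicate 3, at 96.8 CPM, lay among the C57BL/6 values, and Igfbp3 did by 0.91 ± 0.14, adjusted p = 6.6e-06. Igfbp6 exceeded C57BL/6 by 1.79 ± 0.24, adjusted p = 6.8e-07, which was not called with the RUVg factor (log2 0.91, adjusted p = 0.0586). Igfbp4 did by 0.65 ± 0.10, adjusted p = 5.72e-06, but by 0.31 with that factor (adjusted p = 0.147) and 0.51 with housekeeping scaling. Igfbp5 was lowest in C57BL/6, with 618, 488, 651, 706 and 519.6 CPM against 1065, 761, 950.5 and 838 CPM in MRL/MpJ and 925, 1082, 799.8 and 989 CPM in STR/ort. It was the only gene called lower in C57BL/6 than in MRL/MpJ (log2 -0.60 ± 0.12, adjusted p = 0.000618), a call at the fold threshold that 4 of 9 fits without 1 library lost, those without MRL/MpJ replicate 1 or 3 or C57BL/6 replicate 2 or 5 (log2 -0.57 to -0.51).

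Other calls between contralateral joints were lost as well. At 1-day these were Igf1 between STR/ort and MRL/MpJ, without STR/ort replicate 2 (0.52) or with housekeeping scaling (0.56), and Igfbp3 between STR/ort and C57BL/6 with housekeeping scaling (0.56). At 1-week they were Igfbp5 between STR/ort and C57BL/6 with housekeeping scaling (0.55), and with the RUVg factor Igfbp6 between STR/ort and MRL/MpJ (0.57, adjusted p = 0.339) and Igfbp5 between C57BL/6 and MRL/MpJ (-0.53).

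The same contralateral joints differed in their tissue markers. At 1-day 7 of 11 marker lists did not overlap between STR/ort and MRL/MpJ, 1 between STR/ort and C57BL/6 and 6 between C57BL/6 and MRL/MpJ. At 1-week the 8 fast muscle markers summed to 29890 to 57340 CPM in STR/ort, 42850 to 73030 CPM in C57BL/6 and 61790 to 93140 CPM in MRL/MpJ. The 5 fibroblast markers summed to 16390 to 31650, 5934 to 9400 and 6870 to 10320 CPM, and the 4 cartilage markers to 4275 to 5624, 965 to 2738 and 1329 to 2317 CPM. The 4 bone markers summed to 2415 to 3584, 1146 to 1638 and 1114 to 1473 CPM, so that STR/ort was above both other strains without overlap in the fibroblast, cartilage and bone lists. Against MRL/MpJ the macrophage list was also higher and the fast muscle and erythroid lists lower in STR/ort, and the other lists overlapped. At 2-weeks the fast muscle sums of contralateral joints overlapped (47950 to 81460, 52990 to 73460 and 56040 to 80520 CPM), but between STR/ort and MRL/MpJ the fibroblast sums (9885 to 13230 and 7508 to 9296 CPM) and the cartilage sums (2017 to 3029 and 1166 to 1721 CPM) did not, with 3 of 5 and 4 of 4 of these markers called higher in STR/ort. The bone, white fat and immature or denervated muscle lists were higher and the erythroid list lower in STR/ort there, also without overlap. Of the 9 genes Igfbp2, Igfbp6 and Igfbp7 were called between those joints, and the part of tissue content was not tested. Igfbp7 was at the fold threshold (log2 0.59 ± 0.11, adjusted p = 0.000161) and was lost in 4 of 10 fits without 1 library, those without MRL/MpJ replicate 2 or 5 or STR/ort replicate 2 or 4 (0.50 to 0.58).

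Among injured joints 29 of 81 strain differences were called, or 35.8% against 17.1% of all values, 28 of them higher in the more susceptible strain of the pair. STR/ort against MRL/MpJ gave 3 genes at 1-day (20.3% of all genes), 5 at 1-week (29.5%) and 5 at 2-weeks (18.9%). STR/ort against C57BL/6 gave 2 (12.4%), 5 (25.1%) and 2 (10.4%), and C57BL/6 against MRL/MpJ 4 (16.3%), 1 (9.47%) and 2 (11.5%). At 1-week STR/ort exceeded MRL/MpJ by log2 1.69 ± 0.13, adjusted p = 1.13e-11 for Igfbp3. For Igfbp7 the value was 1.597 ± 0.11, adjusted p = 8.19e-13, and for Igf1 1.21 ± 0.14, adjusted p = 3.06e-08. For Igfbp4 it was 0.96 ± 0.096, adjusted p = 1.64e-09, or 0.58 and under the fold threshold with the RUVg factor. Igfbp2 was called in 8 of the 9 strain comparisons of injured joints; against C57BL/6 the 1-week difference of 0.82 ± 0.29, adjusted p = 0.0191 was lost without injured C57BL/6 replicate 4 (0.63) or STR/ort replicate 1 (0.68), and that of C57BL/6 and MRL/MpJ (1.096 ± 0.36, adjusted p = 0.0282) in 4 of 10 fits, without MRL/MpJ replicate 3 or 5 or C57BL/6 replicate 3 or 5 (0.83 to 1.11, adjusted p 0.05 to 0.0969), and both were lost with the RUVg factor (0.20 and 0.97), the former also with housekeeping scaling (0.65, adjusted p = 0.0581). The single value of the other sign was Igfbp6 at 1-day, lower in STR/ort than in C57BL/6 (log2 -1.02 ± 0.22, adjusted p = 0.000778), or -0.72 and not called with the RUVg factor (adjusted p = 0.0772). With housekeeping scaling 27 values were higher and 5 lower, and Igfbp3 between STR/ort and MRL/MpJ at 1-day was no longer called (0.55). Igfbp4 between STR/ort and C57BL/6 at 1-week was lost with the RUVg factor (0.49). At 2-weeks STR/ort was higher than MRL/MpJ in Igf1 (1.07 ± 0.14), Igfbp7 (1.07 ± 0.11), Igfbp3 (0.94 ± 0.12), Igfbp4 (0.73 ± 0.097) and Igfbp2 (2.28 ± 0.27), with adjusted p of 4.01e-09 to 2.71e-07. In 2 of the 2-weeks comparisons 1 of the 2 calls sat at the fold threshold. Igfbp7 between C57BL/6 and MRL/MpJ (0.59 ± 0.11) was lost in 5 of 10 fits without 1 library, those without MRL/MpJ replicate 1, 3 or 5 or C57BL/6 replicate 1 or 4 (0.50 to 0.58), and with RLE size factors, the stricter filter and DESeq2 (0.56 each). Igfbp4 between STR/ort and C57BL/6 (0.59 ± 0.097) was lost in 3 of 10, those without C57BL/6 replicate 2 or 3 or STR/ort replicate 5 (0.499 to 0.58).

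Tissue markers of the injured joints differed between strains as well. At 1-week the fibroblast markers summed to 22760 to 33740 CPM in STR/ort, 10410 to 15990 CPM in C57BL/6 and 10430 to 12710 CPM in MRL/MpJ, and the fast muscle markers to 14690 to 32120, 28400 to 56980 and 44870 to 74790 CPM. STR/ort was above both other strains in the former without overlap, and below MRL/MpJ in the latter. Without overlap with either strain STR/ort was also higher in the endothelium (417 to 523 CPM against 387 to 406 and 361 to 407 CPM), bone (1940.00 to 2785 against 956 to 1337 and 891 to 1285 CPM) and white fat lists. It was lower in the marrow neutrophil (4574 to 6569 against 6857 to 7707 and 7678 to 10290 CPM) and erythroid lists, and against MRL/MpJ alone higher in the macrophage and cartilage lists. At 2-weeks the fibroblast sums were 16010 to 21160, 13900 to 18720 and 8220 to 11410 CPM, with MRL/MpJ below both others. Between STR/ort and MRL/MpJ the cartilage sums (3560.00 to 5201 and 1193 to 2148 CPM), the bone sums (791 to 1088 and 353 to 655 CPM) and those of the white fat, immature or denervated muscle and erythroid lists, the last lower in STR/ort, did not overlap either. At 1-day 5 of the 11 lists did not overlap between STR/ort and MRL/MpJ, 2 between STR/ort and C57BL/6 and 4 between C57BL/6 and MRL/MpJ. The part of these markers in the strain differences of the 9 genes was not tested.

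Whether injury changed a gene differently in 2 strains was tested directly, and 5 of 81 such differences were called, or 6.17% against 0.557% of the values of all genes. They are the Igf1, Igfbp3, Igfbp4 and Igfbp5 values given above. At 1-day 0 genes were called between STR/ort and MRL/MpJ (0.162% of all genes), 2 between STR/ort and C57BL/6 (2.66%) and 0 between C57BL/6 and MRL/MpJ (0.318%). At 1-week the counts were 1 (0.884%), 0 (0.491%) and 0 (0%), and at 2-weeks 2 (0.451%), 0 (0.0462%) and 0 (0%). Between C57BL/6 and MRL/MpJ edgeR called 0 of all genes at 1-week and 2-weeks, with 505 and 984 genes at an unadjusted p under 0.05, and DESeq2 called 0 and 2. The 3 called differences after 1-day are all between STR/ort and MRL/MpJ, in Igfbp3 and Igfbp4, with the larger rise in STR/ort. With the replicate block 8 differences were called in place of 5.

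Over time within batch 1, contralateral joints of MRL/MpJ had 0 of the 9 genes called at 1-day and 0 at 1-week against 0-day (0.0924% and 0% of all genes were, with 991 at an unadjusted p under 0.05 at 1-week and 0 called in DESeq2). In C57BL/6 0 genes were called at 1-day (0.0693% of all genes) and 4 at 1-week (5.72%), all lower than at 0-day. In STR/ort 0 genes were called at 1-day (9.92%) and 3 at 1-week (13.6%), all higher. Igfbp6, Igfbp7 and Igf1 thus moved in opposite directions in these strains between 0-day and 1-week. For Igfbp6 the log2 change was -1.34 ± 0.24, adjusted p = 3.06e-05 in C57BL/6 and 0.76 ± 0.24, adjusted p = 0.0119 in STR/ort, the latter 0.48 (adjusted p = 0.145) without contralateral STR/ort replicate 2. For Igfbp7 it was -0.62 ± 0.11, adjusted p = 2.7e-05 in C57BL/6, or -0.52 and under 1.5-fold without 0-day replicate 4, and 0.78 ± 0.12, adjusted p = 2.6e-07 in STR/ort. For Igf1 it was -0.65 ± 0.14, adjusted p = 0.000756 in C57BL/6, lost without 0-day replicate 4 (-0.49) or 1-week replicate 1 (-0.58), and 0.82 ± 0.15, adjusted p = 1.7e-05 in STR/ort. Igfbp5 was lower in C57BL/6 only (-0.69 ± 0.11, adjusted p = 6.87e-06). Marker sums that did not overlap between 0-day and 1-week were fibroblast, bone and white fat (lower at 1-week) and slow muscle, endothelium and erythroid (higher) in C57BL/6, and fibroblast, macrophage and bone (higher) and fast muscle and immature or denervated muscle (lower) in STR/ort, so the fibroblast and bone lists also went opposite ways. Their part, and whether these changes differ between the strains, was not tested.

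These contralateral changes went along with changes of tissue markers. In C57BL/6 at 1-week against 0-day (5.72% of all genes called) 4 of 4 bone, 4 of 4 cartilage and 5 of 5 fibroblast markers were called lower. There 0 of 8 fast muscle markers were called. In STR/ort 8 of 8 fast muscle markers were called lower at 1-week (13.6% of all genes called) and at 1-day (9.92%), and 4 of 5 fibroblast markers were higher at 1-week. In MRL/MpJ 0 of the markers in these 4 lists were called. The part of tissue content in the changes of the IGF genes was not tested.

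From 1-day to 1-week the most genes were called in the injured joints of STR/ort. The counts called were 4 in MRL/MpJ (3.11% of all genes), 2 in C57BL/6 (4.47%) and 7 in STR/ort (13.9%), all higher at 1-week. Igf2 rose by log2 0.96 ± 0.13, adjusted p = 1.9e-07 in MRL/MpJ, 1.35 ± 0.14, adjusted p = 2.14e-11 in C57BL/6 and 1.67 ± 0.14, adjusted p = 7.83e-16 in STR/ort. Igfbp3 rose by 0.69 ± 0.13, 0.99 ± 0.13 and 1.64 ± 0.12 in the same order, the first of which was lost without 1-week MRL/MpJ replicate 3 (0.52). Igf1 rose by 2.15 ± 0.14, adjusted p = 1.86e-20 in STR/ort and 1.19 ± 0.14, adjusted p = 5.29e-10 in MRL/MpJ, while the C57BL/6 value of 0.58 ± 0.13, adjusted p = 0.00118 missed the fold threshold that it passed with housekeeping scaling (0.73, adjusted p = 6.54e-05), RLE size factors (0.59) and DESeq2 (0.59). Igfbp6 rose by 1.46 ± 0.24, adjusted p = 7.23e-06 in MRL/MpJ and 1.55 ± 0.23, adjusted p = 1.47e-07 in STR/ort. Igfbp4, Igfbp5 and Igfbp7 were called in STR/ort only, at 1.06 ± 0.085, 0.66 ± 0.11 and 1.05 ± 0.10; the Igfbp5 value was 0.58 and under the fold threshold with the RUVg factor, and with housekeeping scaling Igfbp5 was also called in MRL/MpJ (0.63, adjusted p = 0.000118). In STR/ort the fibroblast (16050 to 19420 CPM at 1-day and 22760 to 33740 CPM at 1-week) and endothelium sums (342 to 383 and 417 to 523 CPM) were higher and the marrow neutrophil sums (7085 to 8365 and 4574 to 6569 CPM) lower at 1-week without overlap. In C57BL/6 this held for the macrophage and white fat lists (lower) and the erythroid list (higher), and in MRL/MpJ for 0 of 11 lists. Their part in these changes, and whether the changes differ between the strains, was not tested.

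Tissue markers also moved with injury. Over the 9 injury comparisons 53.3% of fibroblast, 33.3% of cartilage, 22.2% of immature or denervated muscle and 20.8% of fast muscle values were called. The share was 16.7% for slow muscle, 13.9% for white fat, 11.1% for bone and 0% for erythroid markers. For marrow neutrophil (4.44%), macrophage (4.44%) and endothelium markers (3.7%) it was near the 4.32% of all genes. Fibroblast markers had 24 of 45 values called, all higher in injured joints. At 1-week these were 4 of 5 genes in MRL/MpJ, 5 of 5 in C57BL/6 and 2 of 5 in STR/ort, and at 2-weeks 3, 3 and 4 of 5. The other calls were at 1-day. The summed fibroblast level at 1-week was 10410 to 15990 CPM in injured and 5934 to 9400 CPM in contralateral C57BL/6 joints. Fast muscle markers were called lower for 7 of 8 genes in STR/ort and 1 of 8 in C57BL/6 at 1-week, and for 6 of 8 in STR/ort and 1 of 8 in C57BL/6 at 1-day. At 2-weeks 0 of 8 fast muscle markers were called in any strain, with sums of 58300 to 82260 CPM in injured and 47950 to 81460 CPM in contralateral STR/ort joints. In STR/ort at 1-week the immature or denervated muscle markers were called higher for 5 of 5 genes (41.4 to 93.9 CPM in injured and 22.3 to 36.4 CPM in contralateral joints) and the marrow neutrophil markers lower for 2 of 5 (4574 to 6569 and 7576 to 9993 CPM), both without overlap. Bone markers were called lower for 3 of 4 genes there, and the slow muscle markers for 4 of 4 in C57BL/6 at 1-week. Cartilage markers had 10 values called higher, all at 1-week and 2-weeks, with 3 of 4 genes in STR/ort at 2-weeks (3560.00 to 5201 and 2017 to 3029 CPM, without overlap), and 2 called lower, 1 each in C57BL/6 and STR/ort at 1-day. White fat markers had 5 values called lower, 3 of them in STR/ort at 1-day (76.7 to 119 and 119.5 to 159 CPM, without overlap). Their sums were also lower without overlap in C57BL/6 at 1-week and MRL/MpJ at 2-weeks. So were the marrow neutrophil sums in C57BL/6 at 2-weeks (5143 to 6266 and 6808 to 8149 CPM). Endothelium markers had 2 values called higher. Their sums in STR/ort at 2-weeks did not overlap, at 505 to 540 CPM in injured and 457 to 486 CPM in contralateral joints. The part of tissue content in the injury changes of the 9 genes was not tested.

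Other genes of the pathway were followed as lists. Of 14 receptors and signalling genes (such as Igf2r, Insr, Irs1 and Akt1), 0 to 2 were called in each injury comparison and 0 were called lower, in all 7 of 126 values or 5.56%, near the 4.32% of the values of all genes. Grb10, an adaptor that binds the activated IGF and insulin receptors, made up most of these, with 6 of 9 comparisons called higher and log2 values at 1-week of 1.07 ± 0.13, adjusted p = 1.06e-06 in MRL/MpJ, 1.205 ± 0.12, adjusted p = 1.34e-08 in C57BL/6 and 1.38 ± 0.12, adjusted p = 3.04e-09 in STR/ort. Igf2r, which clears IGF-II, was called once (0.64 ± 0.10, adjusted p = 3.07e-05, STR/ort at 1-week). Of the growth hormone axis and ternary complex list, 5 of 6 genes were measured and 1 of 45 values was called (2.22%), Socs2 in STR/ort at 1-week (0.92 ± 0.11, adjusted p = 4.99e-07); Igfbp1, Igfbpl1 and Igf2bp1 were not analysed here. Among 2 mRNA-binding proteins of Igf2, with 2 of 18 values called (11.1%), Igf2bp2 was called at 1-day in MRL/MpJ (0.59 ± 0.17) and C57BL/6 (0.89 ± 0.16).

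Proteases that cut binding proteins, and their inhibitors, numbered 6, of which 1 to 3 were called higher in each injury comparison, in all 18 of 54 values higher and 2 lower (37%, against 4.32% of all genes). Adam12 was called in 7 of 9, with a 1-week change of log2 1.62 ± 0.20, adjusted p = 6.2e-07 in STR/ort and 0.75 ± 0.20, adjusted p = 0.0241 in MRL/MpJ. Htra1 was called in 7, higher in 6 and lower at 1-day in STR/ort (-0.67 ± 0.12, adjusted p = 0.000338), the comparison in which Igfbp6 fell. Pappa2, which cleaves Igfbp3 and Igfbp5, was called in 4, at log2 values up to 0.86 (adjusted p = 0.00476, STR/ort at 2-weeks).

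The 8 imprinted growth genes were called for 6 genes in MRL/MpJ, 7 in C57BL/6 and 8 in STR/ort at 1-week, all higher and with medians of log2 0.70, 0.98 and 1.43, against medians of -0.0056, -0.012 and -0.033 on the log2 scale over all genes. Over the 9 injury comparisons 31 of their 72 values were called (43.1%, against 4.32% of all genes). Igf2 belongs to the same class and was called at the same time. H19, the imprinted non-coding RNA near Igf2, is named for its position, after its values were seen: it lies 72622 bases from Igf2, and its 1-week change was 0.62 ± 0.18, adjusted p = 0.0367 in MRL/MpJ, 0.95 ± 0.17, adjusted p = 0.000155 in C57BL/6 and 1.98 ± 0.19, adjusted p = 6.62e-09 in STR/ort. The changes of Mest were 1.199 ± 0.22, 2.29 ± 0.20 and 2.56 ± 0.20, and those of Dlk1 1.21 ± 0.27, 1.75 ± 0.31 and 1.68 ± 0.35 in the same strains. At 2-weeks 1, 4 and 3 of the 8 genes were called higher. Ndn was called in 5 of 9 injury comparisons, all higher.

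Secreted proteins that share the IGFBP-type domain numbered 8 measured, with 20 of 72 values called (27.8%, against 4.32% of all genes). Wisp2 was called higher in all 9 injury comparisons, from log2 0.68 ± 0.14, adjusted p = 0.0053 in MRL/MpJ at 2-weeks to 1.53 ± 0.17, adjusted p = 1.22e-07 in C57BL/6 at 1-day. Nov was called in 8, lower at 1-day in MRL/MpJ (-0.87 ± 0.21, adjusted p = 0.00942) and STR/ort (-1.500 ± 0.17, adjusted p = 2.54e-07) and higher in all 3 strains at 1-week and 2-weeks. Cyr61 was called in C57BL/6 at 1-day (0.64 ± 0.19) and 1-week (0.78 ± 0.16).

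The genes whose mean log2 CPM over the 21 groups was most like that of each IGF gene were sought among all genes of at least 1 CPM; groups share strain, time and batch, so the correlations are a description. For Igf1 these were Sulf2 (Pearson r = 0.978), Fzd6 (0.965) and Antxr1 (0.96). For Igfbp7 they were Lpar1 (0.985), S100a10 (0.982) and Lhfp (0.982), and for Igfbp4 Arhgef25 (0.976), Epb41l3 (0.969) and Lima1 (0.958). Igfbp2 was most like Capg (0.965) and C4b (0.961), and Igfbp6 most like Scara5 (0.94), Clec3b (0.912) and Ntn4 (0.907). Igfbp3 was nearest to Mras (0.913), Plod2 (0.911) and Stk38l (0.908), and Igfbp5 to Gamt (0.891), Rgma (0.88) and Gas1 (0.816). For Igf2 the values were the lowest of the 9 genes: Wnt16 (0.874), Agtr2 (0.819) and Ptpdc1 (0.814). Igf1r was most like Map3k9 (0.96), Yod1 (0.959) and Ltb (0.955). Within the family Igfbp4 and Igfbp7 were the most alike (0.918), followed by Igf1 and Igfbp4 (0.878) and Igfbp3 and Igfbp4 (0.875), and Igf1r and Igfbp7 went in opposite directions (-0.849).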

How the data were processed

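RNA was sequenced from whole knee joints, 100 libraries in 21 groups of strain, time and joint. The authors aligned reads with TopHat2 (2.0.11) to mm10 and counted them per RefSeq gene with featureCounts; the deposited values are raw counts. Of 17313 rows 3 were repeats and were dropped, and a minimum of 2 counts in at least 5 libraries removed 0 of the remaining 17310 genes.

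Counts were tested with edgeR 4.0.16 (R 4.3.3, limma 3.58.1) by the quasi-likelihood test with TMM library sizes, a fit for each time point and 1 for the 70 libraries of batch 1. P-values were adjusted by Benjamini-Hochberg over the 17310 genes. A gene was called at an adjusted p below 0.05 and a fold above 1.5 (log2 0.585). Levels are CPM with TMM library sizes. The fits were tested on simulated data first.

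Groups and replicate numbers came from the labels. Joints of 1 replicate number were checked for pairing by the correlation of their deviations from the group means. At 2-weeks the labels name the same animal (r = -0.279 to 0.449 over the 15 pairs). The known MRL/MpJ pairs there had r of -0.279 to 0.0824, so this correlation cannot tell which other joints share an animal. At 1-week r was 0.162 to 0.37 in STR/ort, -0.0353 to 0.431 in C57BL/6 and 0.0845 to 0.177 in MRL/MpJ. The labels name no animals at 1-day and 1-week, so pairing is not known there. All 190 pairs of libraries within groups held different counts.

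Alternatives were RLE size factors, scaling by 25 housekeeping genes, RUVg with 1 factor from those genes, a stricter filter (filterByExpr), no filter, no fold threshold, the replicate block, DESeq2 1.42.0 and leaving out each library. The 9 genes and all lists were chosen with earlier results of these data known. Named besides the 9 genes are up to 3 genes of each pathway list with the most called injury comparisons, and the 3 genes most like each of the 9, of which 1 is not reported here. Promoters are from RefSeq, gene positions from GENCODE M21.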

Additional observations from a re-analysis of the deposited data

Results flagged for a closer look

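In 12 of 189 sets of 4 or 5 libraries of a gene and group, 1 library lay far from the others by the ratio of its gap to the range of the group (above the 0.05 critical value for groups of that size); chance gives about 1 in 20 such sets. Igf2 was high in injured MRL/MpJ replicate 5 at 1-day (22.5 CPM), in injured MRL/MpJ replicate 3 at 1-week (44.6 CPM) and in injured C57BL/6 replicate 4 at 2-weeks (47.9 CPM); without this library the 2-weeks change of C57BL/6 was log2 0.58 (adjusted p = 0.0112), just under the fold threshold, against 0.65. The same injured MRL/MpJ replicate 5 at 1-day was high in Igfbp5 (1048 CPM), and injured MRL/MpJ replicate 3 at 1-week was high in Igfbp7 (302.8 CPM). Igfbp7 was also high in injured C57BL/6 replicate 5 at 1-week (355.2 CPM). Igfbp6 stood apart in contralateral STR/ort replicate 2 at 1-week (141.3 CPM, high), contralateral MRL/MpJ replicate 3 at 1-day (16.5 CPM, low) and injured C57BL/6 replicate 3 at 1-day (26.8 CPM, low). Igfbp3 was low in contralateral C57BL/6 replicate 2 at 2-weeks (18.0 CPM). Igfbp2 stood apart in contralateral C57BL/6 replicate 1 at 1-day (2.02 CPM) and replicate 5 at 1-week (2.06 CPM), at low counts.

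The injury change differed between strains, by the test of the difference itself, in 5 cases. Between STR/ort and C57BL/6 at 1-day the log2 difference was -0.95 for Igf1 and -0.59 for Igfbp5. Between STR/ort and MRL/MpJ it was 0.90 for Igfbp3 at 1-week, 0.74 for Igfbp3 at 2-weeks and 0.68 for Igfbp4 at 2-weeks. Only the Igf1 difference passed in every fit without 1 library; what sets these differences was not tested.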

How the results depend on the processing

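Of 112 called values of the 9 genes, 0 changed sign under any alternative, 92 stayed called under every alternative that kept all libraries, and 81 also in every fit without 1 library. Without the fold threshold the counts were 14 at 0-day (10 higher, 4 lower), 44 between strains in contralateral joints, 55 between strains in injured joints and 32 between time points, against 7, 25, 29 and 20. It also gave 39 for injury in place of 26. Differences in injury change between strains numbered 5, against 8 with the replicate block, 9 in DESeq2 and 3 to 6 without 1 library. The fit with the replicate block added calls at 1-week only, for Igfbp3 and Igfbp6, and changed no other call. Whether the numbers pair joints of 1 animal at 1-week is not known. With RUVg the 0-day calls were 7 higher and 1 lower, and with housekeeping scaling those between injured joints 27 higher and 5 lower (28 and 1 without). With housekeeping scaling the median log2 difference of all genes between STR/ort and MRL/MpJ injured joints at 1-day was -0.174. Over all genes RUVg moved the count called between contralateral STR/ort joints at 1-day and 0-day from 1718 to 224, at 1-week and 0-day from 2348 to 975, and between STR/ort and C57BL/6 at 0-day from 2391 to 1494, between STR/ort and C57BL/6 injured joints at 1-day from 2141 to 1330, between STR/ort and MRL/MpJ injured joints at 1-day from 3506 to 2254, and between contralateral MRL/MpJ joints at 1-day and 0-day from 16 to 26. Differences in injury change called over all genes between STR/ort and C57BL/6 at 1-week went from 85 to 289 with the replicate block, 174 in DESeq2 and 151 with RUVg, and between STR/ort and MRL/MpJ at 1-week from 153 to 341 with the replicate block and 230 in DESeq2. At 2-weeks they went from 78 to 49 with RLE and 37 with filterByExpr between STR/ort and MRL/MpJ, from 8 to 17 with the replicate block, 31 in DESeq2 and 14 with RUVg between STR/ort and C57BL/6, and from 0 to 2 in DESeq2 between C57BL/6 and MRL/MpJ, and at 1-day between these last from 55 to 106 in DESeq2 and 24 with housekeeping scaling. The cause was not tested. Counts of 0 to 38 limit Igfbp2.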
